A study of Mus musculus with 2 samples.

Results

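Frame-shifting cassette exons are internal exons that some reads of a gene include and others skip, and whose length is not a multiple of 3. Between start and stop codon, such an exon moves the codons after it into another reading frame unless another exon restores the frame. The exons were found in long-read RNA sequencing of mouse gastrocnemius, the large calf muscle. The members are internal exons of annotated genes with at least 20 informative reads over both libraries and a pooled inclusion of 10 to 90%. Informative reads are those with both junctions into the exon, which count as included, and those with a junction between its flanking exons that leaves it out, which count as skipped. Of 138096 internal exons in the splice chains of annotated genes, 50183 had enough reads and 1357 were cassette exons. Of these, 547 in 452 genes shifted the frame and are described here. The other 810 keep the frame and are set beside them for comparison.

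The labels give a single group of 2 libraries, replicates 1 and 2, made from the gastrocnemius of females of B6CASTF1/J at 14 days of age. These mice are first-generation hybrids of C57BL/6 and CAST parents. Total RNA was used, with a starting quantity of 2 µg and synthetic spike-in RNA. Replicate 1 is labelled with 3 females, replicate 2 with a female and no number, and the donor identifier is shared. The sources used here do not say if animals were pooled for either library. The study holds no contrast of conditions, so the comparisons are among exons and between these libraries. Every p-value and interval covers counting error only. Since no molecular identifiers were recorded, reads need not stand for separate molecules.

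The libraries held 1316937 reads in replicate 1 and 1204188 reads in replicate 2, of which 1248854 and 1106450 belonged to annotated genes. The myofibre markers Acta1, Ckm, Tnnc2, Mylpf and Atp2a1 took 29.1% of annotated-gene reads in replicate 1 and 25.7% in replicate 2. All 4 fibroblast markers were detected, at 0.792% and 0.340% in sum. The Schwann cell markers took 0.0315% and 0.186%, and the erythroid ones 0.144% and 0.126%. Markers of endothelium, smooth muscle, macrophages and satellite cells summed to at most 0.0266% each in either library. Averaged over reads, the assigned transcript model measured 2283.8 bases in replicate 1, against 1483.6 bases in replicate 2.

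An exon that does not hold whole codons can enter a messenger RNA in a few ways. It can lie outside the coding part, where the frame does not matter, or near the end, where the new frame gives another protein tail. It can be tied to a partner exon that restores the frame, as in mutually exclusive exons. It can also bring a stop codon far from the last junction, and such messengers are known targets of nonsense-mediated decay, the pathway that degrades messengers with premature stops. Several genes of RNA-binding proteins hold such stop-carrying exons, often called poison exons.

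The exons below are shown because the results turn on them. They carry the switch in the most read pair, the identity between mutually exclusive partners, and a premature stop. The sequences are those of the GENCODE M21 transcripts on mm10 (GRCm38), in the direction of the gene, and all of these exons lie in coding genes. The CAST alleles were not analysed here. In Myl1, which encodes the essential light chains of fast myosin, the 25-base exon at chr1:66934518-66934542 (minus strand) and the 28-base exon at chr1:66934246-66934273 differ in length by 1 codon:
Myl1 25-base exon: tccttcagtgctgaccagattgccg
Myl1 28-base exon: atcgagttctctaaggagcaacaggagg

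In Tnnt3, which encodes fast skeletal troponin T, the upstream exon at chr7:142513665-142513705 and the downstream exon at chr7:142514326-142514366 (plus strand) are both 41 bases long. Capitals mark the 18 positions with the same base in both, an identity of 43.9%:
Tnnt3 upstream exon: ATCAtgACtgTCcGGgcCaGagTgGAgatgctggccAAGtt
Tnnt3 downstream exon: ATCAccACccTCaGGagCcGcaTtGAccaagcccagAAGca

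In Ide, which encodes the insulin-degrading enzyme, the upstream exon at chr19:37290670-37290814 and the downstream exon at chr19:37290044-37290188 (minus strand) are both 145 bases long. Capitals again mark equal positions, 82 in number, an identity of 56.6%:
Ide upstream exon: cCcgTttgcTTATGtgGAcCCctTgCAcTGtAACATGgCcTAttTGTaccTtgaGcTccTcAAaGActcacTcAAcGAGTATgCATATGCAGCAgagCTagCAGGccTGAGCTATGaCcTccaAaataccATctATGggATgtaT
Ide downstream exon: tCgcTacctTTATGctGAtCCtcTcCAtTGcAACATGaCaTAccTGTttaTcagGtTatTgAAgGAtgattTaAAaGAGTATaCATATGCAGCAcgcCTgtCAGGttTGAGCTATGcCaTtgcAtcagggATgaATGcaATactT

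The last pair of sequences are exons with a stop codon in the frame of the exon before them, which capitals mark. Rbm39 encodes an RNA-binding splicing coactivator, and its 73-base exon lies at chr2:156178880-156178952 (minus strand). Yaf2 encodes a partner of the transcription factor YY1 and of Polycomb complexes, and its 70-base exon lies at chr15:93317539-93317608 (minus strand). The first base of the stop codon is base 70 of the Rbm39 exon and base 53 of the Yaf2 exon:
Rbm39 73-base exon: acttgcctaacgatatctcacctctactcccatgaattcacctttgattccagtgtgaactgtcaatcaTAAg
Yaf2 70-base exon: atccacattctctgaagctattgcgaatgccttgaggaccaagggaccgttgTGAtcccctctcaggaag

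Frame-shifting exons made up 40.3% of the cassette exons, against 60.0% (30089) of all 50183 internal exons with enough reads. The members divided into 264 with a remainder of 1 base and 283 with a remainder of 2 bases. Their median length was 106 bases (range 14 to 9310), and that of the frame-keeping exons 87 bases (range 12 to 5121). Some members are forms of a single exon with different edges: counted by overlap, the 547 exons formed 510 places. In 79 genes there were at least 2 members. The exon itself and a junction skipping it were both annotated for 357 members, the exon alone for 67, the skipping junction alone for 87 and neither for 36. The exon was thus absent from the annotation in 22.5% of the members and in 13.0% of the frame-keeping exons.

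The members were chosen by their pooled inclusion and informative reads, which are therefore a description. Pooled inclusion had a median of 51.0%. It was under 30% in 188 members, 30 to 70% in 154 and over 70% in 205. The lowest members at the limit of 10% were Anapc16 (6 of 60 reads), Prdm4 (3 of 30) and Clk4 (2 of 20), all exactly at it. Just outside were Dlgap4 at 9.90%, Pkig at 9.90% and Fam160a1 at 9.76%. At the upper limit, Qrsl1 (18 of 20), Cinp (36 of 40) and Faf2 (18 of 20) stood exactly at 90%, and just outside stood Ubxn2a, Axl and Rab28, all at 90.1%. The limits thus part exons that lie a small fraction of a percentage point from each other.

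The number of informative reads ran from 20 to 34625 with a median of 41, and 83 members had at least 100. At 20 reads an interval is wide: the Clk4 exon of 59 bases with 2 included reads had a Wilson 95% interval of 2.79 to 30.1%. For 35 members the informative reads were under 5% of the reads of the gene, and 30 of these exons were not annotated. Among them are exon forms in Acta1, the skeletal actin gene, in Atp2a1, the fast calcium pump of the sarcoplasmic reticulum, and in Ckm, the muscle creatine kinase. In these genes, the best covered such exon had informative reads amounting to 0.0797% (Acta1), 0.0277% (Atp2a1) and 0.0252% (Ckm) of the gene's reads. An inclusion value there compares rare forms with each other.

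The places of these exons in the messenger differed from those of the frame-keeping class. Of the members, 125 (22.9%) lay before the coding part, 40 (7.31%) held the start codon, 336 (61.4%) lay between start and stop codon, 18 (3.29%) held the stop codon and 7 (1.28%) lay after it. For 21 no transcript with an annotated start and stop codon spanned the exon. The frame-keeping exons had 62 (7.65%) before the coding part, 16 (1.98%) with the start codon, 708 (87.4%) between the codons, 8 (0.988%) with the stop codon and 3 (0.370%) after it. The member was the second exon of its most read model in 222 cases (40.6%), against 119 (14.7%) of the frame-keeping exons. It was the last but one in 145 (26.5%), against 107 (13.2%). Genes share libraries and exons share genes, so these shares are given as a description without a test.

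**Figure D1:**
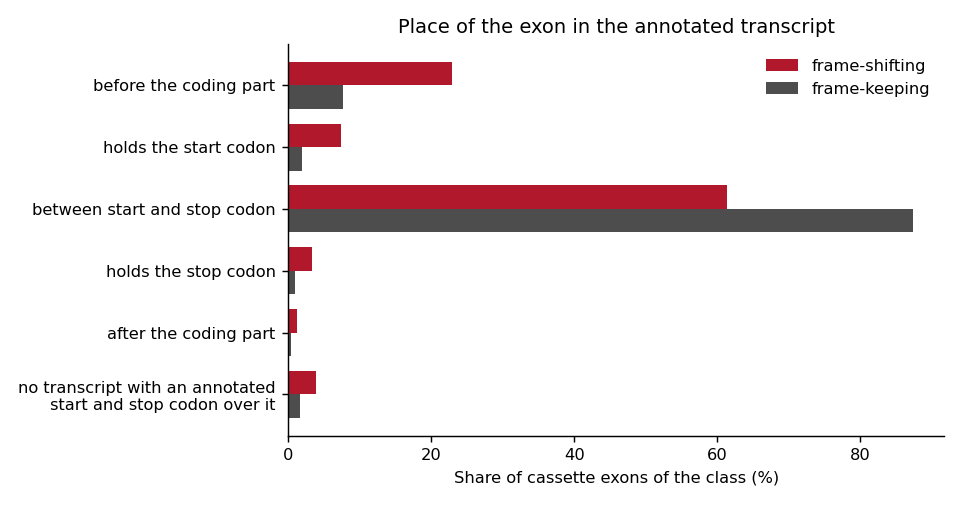
Horizontal bars give the share (%) of the 547 frame-shifting and the 810 frame-keeping cassette exons at each place of the annotated coding transcript with the most reads. Between the start and the stop codon lay 61.4% of the frame-shifting exons and 87.4% of the frame-keeping ones.

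Exons before the coding part had a median inclusion of 31.7%, those holding the start codon 76.8% and those between the codons 58.2%. The most read of the first kind was a 95-base exon of Slc16a3 (chr11:120954174-120954268), the lactate exporter MCT4 of glycolytic muscle. It was included in 835 of 972 informative reads (85.9%) of replicate 1 and in 331 of 387 (85.5%) of replicate 2. Ndufs1, which encodes a core subunit of respiratory complex I, carried a 104-base exon (chr1:63172154-63172257) that was mostly skipped. Its inclusion was 13.7% in replicate 1 and 16.9% in replicate 2. The Wilson intervals of the libraries overlapped for both exons. Of the reads with a start codon, 99.7% of the included and 99.5% of the skipped ones of Slc16a3 ended at an annotated stop, in a frame of 470 codons in either form. In Ndufs1 these shares were 100% and 98.5%, with 727 codons in either form.

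Other leader exons were in Mff, a receptor for the mitochondrial fission machinery, with inclusion of 12.5% and 15.7%, and in Ankrd9 with 45.3% and 32.5%. Snrk, an AMPK-related kinase gene, held a pair of leader exons of 50 and 116 bases at 86.7% and 41.6% pooled inclusion. The 116-base value leaves out reads whose spanning junction does not join its flanking exons. It was 27.4% with any spanning junction as skipping. After the coding part, the 35-base exon of Smpx (chrX:157751595-157751629), a small muscle protein of the costamere, was included in 287 of 368 reads (78.0%) in replicate 1 and 346 of 466 (74.2%) in replicate 2. Both Smpx forms had a main frame of 85 codons, and its most read known included model has the annotated type nonsense_mediated_decay.

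For the exons between start and stop codon, the frame was read from an annotated start codon through each splice chain. Any annotated start codon that led to an annotated stop counted, and otherwise the start codon with the most reads was used. A form was said to reach an annotated stop codon when most of its reads did. Of 336 such members, 214 had at least 5 reads of each form with a start codon. Both forms reached an annotated stop in 105 (49.1%), the included form alone in 62 (29.0%), the skipped form alone in 37 (17.3%) and neither in 10 (4.67%). Of 512 frame-keeping exons read the same way, both forms reached one in 477 (93.2%), the included form alone in 4 and the skipped form alone in 22. With at least 10 reads of each form, 114 members remained, of which the included form alone reached an annotated stop in 24 and the skipped form alone in 20. With the most read start codon only, both forms reached one in 74 of the 214, against 105.

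The class followed inclusion closely, as a description. It rests on which stop codons the annotation lists, and whether that listing itself goes with inclusion was not tested. Median inclusion was 81.5% where the included form alone kept an annotated end, 23.0% where the skipped form alone did, and 49.0% where both did. Inclusion was over 50% in 60 of the 62 exons of the first kind and under 50% in 32 of the 37 of the second kind. The other form stopped early, more than 50 bases before the last junction, in 45 of the 62 and 30 of the 37. In 22 of the 37 the stop codon lay inside the exon itself. The fewer frame-keeping exons of these kinds had the same pattern. Where the skipped form alone reached an annotated stop, median inclusion was 27.3%, and 18 of 22 were under 50%. Of these 22, the other form stopped early in 18, and the stop lay inside the exon in 16. Where the included form alone did, all 4 were over 50%.

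**Figure D2:**
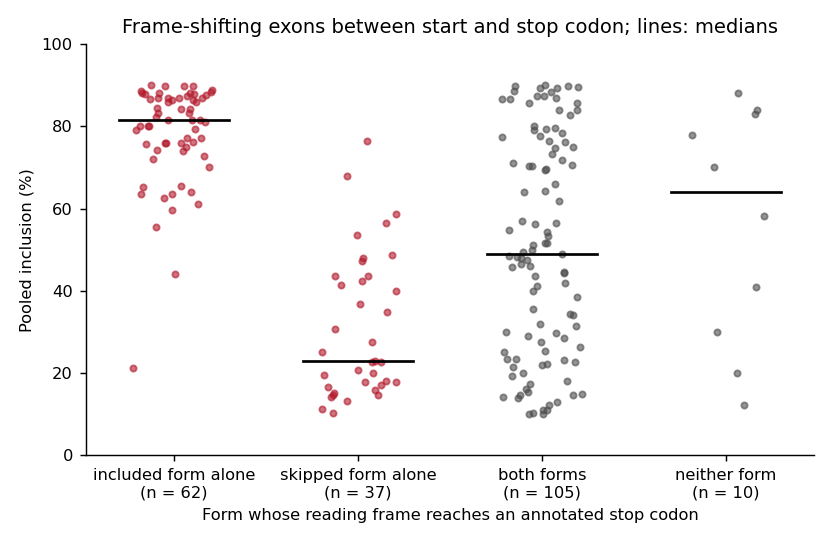
Each point is a frame-shifting cassette exon between start and stop codon, placed by its pooled inclusion (%) and by which form's reading frame reaches an annotated stop codon. The 62 exons whose included form alone does had a median (line) of 81.5%, and the 37 whose skipped form alone does had 23.0%.

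Among exons whose inclusion brought a premature stop, Rbm39 had 26 included and 85 skipped reads (23.4%) in replicate 1, and 11 and 39 (22%) in replicate 2. Of the included reads with a start codon, 94.6% stopped early after 40 codons, at the stop printed above, while the skipped form read 530 codons. Yaf2 had 17 included and 27 skipped reads (38.6%) in replicate 1 and 14 and 13 (51.9%) in replicate 2. Rbm39 inclusion was 11.3% with Known models only. The included form of Yaf2 ended after 68 codons and its skipped form after 179. The annotation gives the most read known model of either included form the type nonsense_mediated_decay. The 20-base exon of Myl6 (chr10:128493334-128493353), a gene for nonmuscle and smooth muscle myosin light chain, shifted the frame to a stop after 41 codons in place of 151. It was included in 21 of 113 reads (18.6%) in replicate 1 and 38 of 277 (13.7%) in replicate 2. The Myl6 exon had no inclusion value with Known models only.

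Thoc7, a subunit of the THO mRNA export complex, and Thap12 were chosen after their values were seen. Their exons of 172 and 95 bases were at 10.4% and 17.9% pooled inclusion, and every included read with a start codon stopped early, after 8 and 79 codons. A 98-base exon of Rabggtb, which encodes a subunit of an enzyme that attaches lipids to Rab proteins and was chosen in the same way, stood at 15.9%, and all of its included reads with a start codon stopped early as well, after 145 codons.

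In the opposite class, skipping broke the frame. Zc3h14, a poly(A)-binding zinc finger protein gene, included its 115-base exon (chr12:98752778-98752892) in 67 of 78 reads (85.9%) in replicate 1 and 40 of 46 (87.0%) in replicate 2. The included form read 735 codons and the skipped form stopped after 31. Mapk12, the muscle-enriched p38 gamma kinase gene, and Coq2, an enzyme of coenzyme Q synthesis, were chosen after their values were seen. Their exons of 115 and 167 bases were at 88.0% and 81.0% pooled inclusion, and the skipped forms ended after 127 and 157 codons in place of 367 and 374. Of Mapk12 skipped reads with a start codon, 100% stopped early, and of those of Coq2, 91.7%.

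Mbnl2, a muscleblind-like splicing regulator gene, went against the trend of this class. Its 95-base exon (chr14:120404638-120404732) was included in 54 of 242 reads (22.3%) in replicate 1 and 11 of 66 (16.7%) in replicate 2. The included form read 355 codons to an annotated stop. Of the skipped reads, 1 came from a Known model and 233 from NIC models, which join annotated splice sites in an unannotated chain. With Known models only, inclusion was 98.3%, so the direction turned. All 239 skipped reads with a start codon read 361 codons to a stop that no protein-coding transcript of the annotation holds, though not an early one. Both forms thus had frames of like length, and the class of this exon rests on which stop codons the annotation lists.

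Where both forms reached an annotated stop, 53 members led to the same stop and 52 to a different one. In Mybpc1, which encodes slow myosin-binding protein C, the 59-base exon (chr10:88521277-88521335) was included in 558 of 2507 reads (22.3%) in replicate 1 and in 127 of 529 (24.0%) in replicate 2. Its inclusion was 1.67% with Known models only, which held 9 included reads. Inclusion gave 1141 codons and its skipping 1124, with different tails. In Ube2d3, a ubiquitin-conjugating enzyme gene, the 50-base exon (chr3:135463721-135463770) held a stop itself, and the forms read 148 and 147 codons. It was included in 152 of 287 reads (53.0%) in replicate 1 and in 139 of 228 (61.0%) in replicate 2. Of the included reads, 279 were in NIC models and 10 in Known ones, and with Known models only inclusion was 4.37%.

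Slc44a2, a choline transporter-like gene, had a like arrangement, with a 172-base exon at 23.3% and 18.6% and forms of 712 and 706 codons. The Slc44a2 exon had no inclusion value with Known models only. Ctbp1, a transcriptional corepressor gene, instead carried a different start: its 193-base exon (chr5:33269442-33269634) was included in 75.6% and 77.8% of reads, and the forms read 430 and 441 codons to the same stop. Of the Ctbp1 included reads, 494 were in NIC models and 84 in Known ones, and inclusion with Known models only was 36.8%. Among exons with the stop codon, Camk2d, a calcium/calmodulin-dependent kinase gene, had 519 codons with and 498 without its 89-base exon. Its inclusion was 83.1% in replicate 1 and 79.1% in replicate 2. Nfic, a nuclear factor I gene, had 439 and 428 codons, with inclusion of 83.8% and 84.2%.

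**Figure D3:**
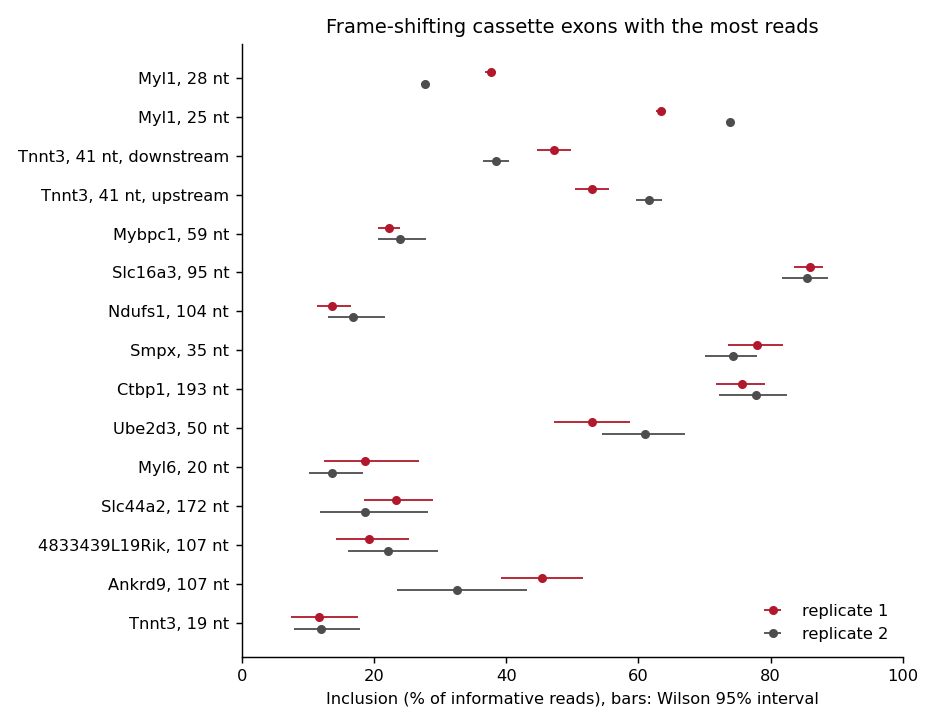
Inclusion (%) in replicate 1 and replicate 2 of the 15 frame-shifting cassette exons with the most informative reads, with Wilson 95% intervals (counting error only). The intervals of the libraries were apart for both Myl1 and both 41-base Tnnt3 exons and overlapped for the others.

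A frame-shifting exon can be balanced by another in the same molecule, which long reads show directly. In 54 genes, 68 pairs of non-overlapping members were covered together by at least 20 reads. The share of reads with the most common frame had a median of 71.1% over these pairs. It was at least 90% in 17 pairs in 12 genes. No share for independent use of the exons was computed beside it. Some of the 17 pairs hardly held 1 of their exons, so a high share there does not show joint use. In each Atp2a1 pair, for example, all 26 reads held neither exon. In 10 pairs whose lengths differ by a multiple of 3, at least 90% of the reads held exactly 1 of the exons. Those pairs lie in Myl1, Tnnt3, Plpp1, Ide, Abcd3, U2af1, P4ha1, Emid1 and Slc8a3, of which Abcd3, U2af1, Emid1, P4ha1 and Slc8a3 were named after their values were seen. Some were uneven, and a high share can then come from frequent use of the same exon. A Myl1 pair of 175 and 28 bases had the first alone in 8 and the second alone in 10423 of 10979 reads. Emid1 had 35 and 3 of 42 reads, and Slc8a3 had 17 and 4 of 22.

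Myl1 was by far the best covered pair. Of 14747 reads over both exons in replicate 1, 8965 held the 25-base exon alone, 5311 the 28-base exon alone, 261 both and 210 neither. In replicate 2, of 19877 reads, 14058 held the 25-base exon alone, 5112 the 28-base exon alone, 369 both and 338 neither. The reading frame was the same in 96.8% and 96.4% of them. The exons followed different first exons, and the annotated forms are the known long and short light chains. Behind the upstream first exon, 5261 of 5262 reads in replicate 1 and 5018 of 5020 in replicate 2 held the 28-base exon alone, in a frame of 188 codons. Behind the downstream first exon, 8767 of 9208 and 13657 of 14315 held the 25-base exon alone, in a frame of 150 codons. Which of the exons a read held thus followed its first exon. In reads behind the downstream first exon, 2.42% held both exons and 2.22% neither.

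In Tnnt3, reads with both exons or with neither were rarer still. Its upstream 41-base exon alone was in 765 of 1463 reads over both in replicate 1 and in 1384 of 2277 in replicate 2. The downstream exon alone was in 686 and 874, both in 10 and 17, and neither in 2 and 2. Exactly 1 exon was present in 99.2% of the reads of either library. Neither 41-base exon had an inclusion value with Known models only. The 41-base exons are the known mutually exclusive exons near the end of fast troponin T, whose balance is known to move as muscle matures. A 19-base Tnnt3 exon (chr7:142508335-142508353) was included in 18 of 155 informative reads in replicate 1 and 20 of 166 in replicate 2. Its pooled inclusion of 11.8% was 1.69% with any spanning junction as skipping, 5.37% without ISM models and 100% with models of at least 2 reads. It was in 38 reads of the 2241 over its pair with the downstream exon, and its pairs kept the most common frame in 60.2% of reads with the downstream exon and in 59.6% with the upstream one.

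Of the smaller pairs, those of Plpp1, Ide, Abcd3 and P4ha1 behaved like Tnnt3. Plpp1, a lipid phosphate phosphatase gene, had its 155-base exon alone in 92 and its 152-base exon alone in 81 of 179 reads, with both in 3 and neither in 3. Ide had the upstream exon alone in 43 and the downstream exon alone in 64 of 108 reads, and both in 1. Abcd3, a peroxisomal fatty acid transporter gene, had 39 and 31 of 73 reads. P4ha1, a collagen prolyl hydroxylase subunit gene, had 23 and 24 of 49. In Plpp1, Abcd3 and P4ha1 the partners were used at similar levels. With Known models only, both Plpp1 exons and the upstream Ide exon read 100%, as did both Ide exons with models of at least 2 reads. U2af1, which encodes the small subunit of the splicing factor U2AF, was uneven, with its upstream 67-base exon alone in 5 and its downstream exon alone in 52 of 59 reads. Identity between the partners was 51.4% in Abcd3, 59.2% in P4ha1 and 65.7% in U2af1, at equal lengths of 70, 71 and 67 bases.

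**Figure D4:**
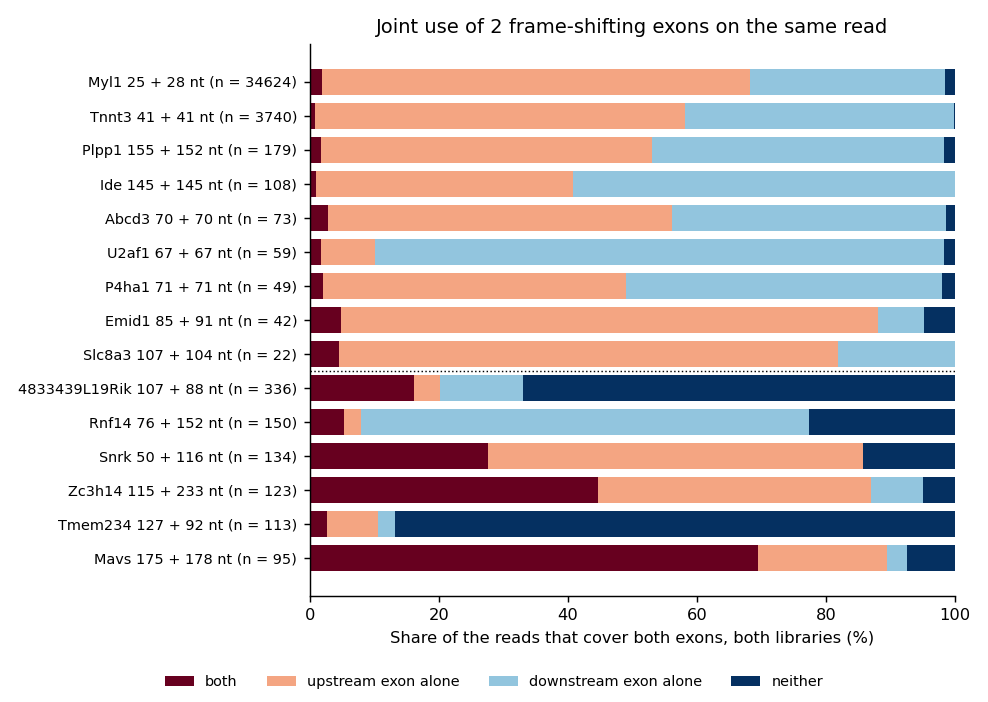
Each bar divides the reads that cover both exons of a pair, over both libraries, by whether both, the upstream exon alone, the downstream exon alone or neither was included (%). Above the dotted line are the pairs with exactly 1 exon in at least 90% of reads, such as Tnnt3 with 99.2%. Myl1 pairs with a longer form of the 25-base exon are not shown. Below it is the best covered pair of each of 6 other genes, in which the exons were mixed.

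Of 30 pairs whose lengths add to a multiple of 3, 4 held both or neither in at least 90% of reads, and 25 were mixed. In 3 of the 4 most reads held neither. Low inclusion of each exon alone can give such a share, so the share by itself does not show joint use. In Aasdhppt, whose product attaches phosphopantetheine groups to carrier proteins, the exons of 226 and 122 bases were both in 40 of 49 reads and neither in 5. It was named after its values were seen. In Flot2, a membrane raft scaffold gene, the exons of 44 and 91 bases were both in 8 and neither in 270 of 303 reads. The 44-base exon was alone in 1 read and the 91-base exon alone in 24. Joint use of the Flot2 exons was not tested. The 44-base exon, at 31.4% pooled inclusion, was at 3.61% with any spanning junction as skipping. Most reads over the Flot2 pair skipped both, as in the pair of 89 and 19 bases in Tnnt3, where 1858 of 1894 reads held neither. The remaining pair, in Atp2a1, had 26 reads, all with neither. In the uncharacterised gene 4833439L19Rik, the 107-base and 88-base exons before and at the start codon were both in 54, neither in 225, the first alone in 14 and the second alone in 43 of 336 reads. Their pooled inclusion of 20.4% and 31.4% was 100% and 84.4% with Known models only.

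Of all 68 pairs, 51 were mixed. In Zc3h14, exons of 115 and 233 bases were both in 55 of 123 reads, the first alone in 52, the second alone in 10 and neither in 6. The 233-base exon was at 56.9% pooled inclusion and at 100% with Known models only. In Snrk, the 116-base leader exon was found in 37 reads with the 50-base exon and in 0 reads without it, of 134. In Rnf14, a ubiquitin ligase gene, the 152-base exon alone was in 104 of 150 reads.

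The libraries were compared by Fisher's exact test on included and skipped reads. It ran on all 23571 internal exons that had 20 or more informative reads in both libraries, with Benjamini-Hochberg adjustment over these. Exons were called where the adjusted p was under 0.05 and the libraries were at least 10 percentage points apart. Of 185 members tested, 1 was called, which is 0.541%, against 1 of 306 frame-keeping exons (0.327%), 2 of 491 cassette exons of both classes (0.407%) and 2 of all 23571 (0.00849%). Without adjustment, 12 members (6.49%) had a p under 0.05, against 30 frame-keeping exons (9.80%) and 0.369% of all exons tested. Of the 23571 exons only 491 are cassette exons, and the others have pooled inclusion under 10% or over 90%. The lower shares over all exons thus go with the choice of members by inclusion. The absolute difference between the libraries had a median of 5.35 points and was under 10 points in 131 members. Inclusion was higher in replicate 1 for 111 and in replicate 2 for 72, and 150 were at 10 to 90% in both libraries. Inclusion in the libraries had a Pearson r of 0.944 across the members, which share the libraries and are partly in the same genes.

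The called exon was the 25-base exon of Myl1. It was included in 9230 of 14546 reads (63.5%) in replicate 1 and in 14430 of 19553 (73.8%) in replicate 2, a difference of -10.3 points (replicate 1 minus replicate 2; Fisher's exact test, adjusted p = 9.95e-89). Its 28-base partner moved the other way, with 37.6% in replicate 1 and 27.7% in replicate 2. That difference of 9.97 points (Fisher's exact test, adjusted p = 6.04e-82) fell just under the size set for a call. Reads of both Myl1 first exons enter these values, which therefore also carry first-exon use. The upstream first exon had 5262 reads in replicate 1 and 5020 in replicate 2, and the downstream one 9208 and 14315. Of the downstream reads, 8767 and 13657 held the 25-base exon alone, and 236 and 333 held both exons. The part of first-exon use in the call was not tested. The Tnnt3 exons had adjusted p-values of 9.44e-04 and 5.34e-04 by Fisher's exact test at smaller differences. The upstream exon was at 53.0% in replicate 1 and 61.6% in replicate 2, the downstream exon at 47.2% and 38.4%.

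In Myl1 the form with more reads in replicate 2, Myl1-202, is 803 bases long and had 8569 reads in replicate 1 and 13351 in replicate 2. The longer Myl1-201, of 1082 bases, had 5123 and 4918. The reads of replicate 2 came from shorter models on average, as given above, and the part of this length difference in the result was not tested. With Known models only, 0 members were called, since the annotated Myl1 forms then share no upstream flanking exon. Both Myl1 exons read 100% under that setting. In bulk tissue, a different mix of cells and a different level per cell cannot be told apart. Wide differences were also seen in thinly read exons, of which the following were named after their values were seen. Pde2a, a cyclic nucleotide phosphodiesterase gene, had 14 of 47 reads (29.8%) in replicate 1 and 16 of 24 (66.7%) in replicate 2 for a 62-base exon. A 37-base exon of C2cd2 had 52 of 100 (52.0%) and 9 of 47 (19.1%). Neither passed Fisher's exact test after adjustment (adjusted p = 1.0 and 0.447).

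**Figure D5:**
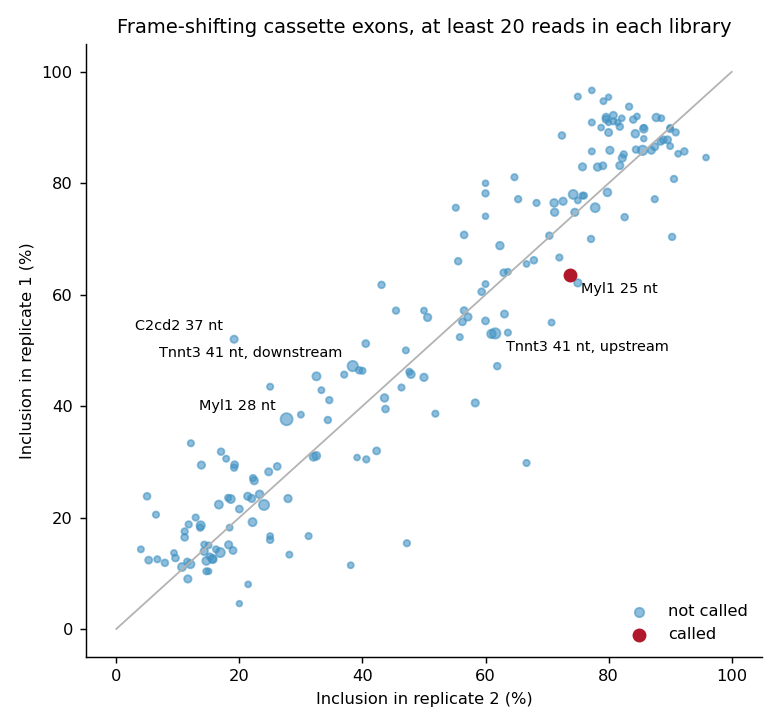
Inclusion (%) in replicate 1 (vertical) against replicate 2 (horizontal) for the 185 frame-shifting cassette exons that had 20 or more informative reads in both libraries; larger points have more reads and the line marks equality. The 25-base Myl1 exon, in red, is the called one, at 63.5% in replicate 1 and 73.8% in replicate 2.

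By gene list, 23 members lay in 12 genes of the contractile apparatus and Z-disc, among 1196 measured exons of 73 such genes, where 32 frame-keeping cassette exons were found. Of the 23, 14 rested on under 5% of the reads of their gene and 13 exons were not annotated. Median inclusion in the list was 45.0%, beside 51.0% over all members. Of 13 tested, 1 was called, the Myl1 exon. Myl1, Tnnt3, Mybpc1 and Myl6 supplied its well-read members. Palld, a gene for the actin-bundling protein palladin, was chosen after its values were seen: its unannotated 47-base exon was included in 48 of 68 reads (70.6%) in replicate 1 and 19 of 27 (70.4%) in replicate 2.

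Genes of splicing factors and RNA-binding proteins held 26 members in 18 genes, against 15 frame-keeping cassette exons, and none rested on under 5% of the gene's reads. Over all genes the members were fewer than the frame-keeping exons, 547 against 810. Of 12 members of this list between start and stop codon with both frames read, both forms reached an annotated stop in 7, the included form alone in 4 and the skipped form alone in 1. None of 15 tested was called. Fxr1, an FMR1-related RNA-binding protein gene, included its 92-base exon in 112 of 122 reads (91.8%) in replicate 1 and in 86 of 98 (87.8%) in replicate 2, with 677 codons in place of 595. The skipped form of Fxr1 thus also ended at an annotated stop in most reads.

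Mbnl1, another muscleblind gene, had a 95-base exon at 88.6% in replicate 1 and 72.4% in replicate 2, and the 95-base exon of Mbnl2 was below 50% in both, though not with Known models only. Hnrnpa2b1, a heterogeneous nuclear ribonucleoprotein gene, had a 136-base exon after the coding part at 61.8% and 43.1%. The differences between the libraries for both did not pass the test (Fisher's exact test, adjusted p = 1.0 for each).

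Calcium handling and membrane genes had 7 members against 34 frame-keeping exons, and 5 of the 7 rested on under 5% of the gene's reads. Camk2d, described above, was the only well-read annotated member there. Cltc, the clathrin heavy chain gene, had an unannotated 38-base exon at 33.3% in replicate 1 and 27.3% in replicate 2. Energy metabolism genes had 6 members against 12, in Ndufs1, Mff, Idh3b and Ckm, and transcription and chromatin genes 5 against 9. Of the 6 energy metabolism members, 4 rested on under 5% of the gene's reads and 4 exons were not annotated. The 143-base Idh3b exon, at 16.0% pooled inclusion, was at 0.348% with any spanning junction as skipping. In the transcription list, Nfib, a nuclear factor I gene, had exons of 89 and 166 bases with 9 of 60 and 12 of 56 pooled reads including them. The 89-base exon was at 58.3% with models of at least 2 reads, and the 166-base exon at 100% with Known models only. The 166-base exon was at 38.1% without replicate 1 and at 11.4% without replicate 2.

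Among genes listed for mutually exclusive exons, 13 members lay in 6 genes, against 17 frame-keeping exons. They include 3 forms of a Ktn1 exon with a shared start and different ends, of 110, 112 and 116 bases, each at the stop codon of kinectin. Their pooled inclusion was 55.6%, 25.3% and 36.4%, and the 110-base form read 100% with Known models only. Noncoding host RNAs, in which no frame is read, had 3 members: a 41-base exon of Gas5 at 16.7% in replicate 1 and 31.2% in replicate 2, and exons of Meg3 of 94 and 184 bases. The 94-base exon was in 3 of 26 reads in replicate 1 and 2 of 19 in replicate 2, the 184-base exon in 16 of 28 and 15 of 30.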

How the data were processed

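The data are long reads of gastrocnemius RNA from 2 libraries of a single group, numbered by the labels' replicate numbers. The authors deposited, per the file headers, raw read counts per transcript model and, per library, the exon coordinates of those models. The attributes beside the coordinates name TALON, which assigns long reads to models in classes (Known; ISM, part of a known chain; NIC and NNC, unannotated chains). The annotation is GENCODE M21 on mm10, per the submitters' processing notes. Not given in the sources used here are the aligner, the platform and the TALON version.

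Each model of a Known gene in the classes Known, NIC, NNC or ISM added its count to the exons it includes and the junctions it holds. Skipping junctions join a donor and an acceptor that also flank the exon. Frames were read on GENCODE M21 transcript sequence from annotated start codons, with stop codons of protein-coding transcripts. A stop more than 50 bases before the last junction was called early. Intervals are Wilson 95% intervals. The test was also run on counts simulated from the read totals of the tested exons. Python 3.11.15 with pandas 2.3.3, numpy 2.4.6, scipy 1.17.1, statsmodels 0.14.6 and matplotlib 3.10.9 was used.

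The members and lists were chosen with earlier results of these data known. The named exons are the 15 with the most informative reads, up to 5 per gene list by reads, the 8 with the largest difference among those called, members of up to 10 genes with pairs covered together by at least 20 reads, and the 3 nearest each side of either inclusion limit. Alternatives were other read minimums and inclusion limits, any spanning junction as skipping, model classes, models with at least 2 reads and either library alone.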

Additional observations from a re-analysis of the deposited data

How the results depend on the processing

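No paired analysis was possible because the labels give a single group. The number of frame-shifting exons, 547 as reported, was 510 with overlapping exons of a gene counted once, 532 without ISM models and 796 with any spanning junction as skipping.

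The number of members was 1004 with a minimum of 10 pooled reads, 219 with 50, 973 at limits of 5 to 95%, 286 at 20 to 80%, 127 with Known models only and 354 with models of at least 2 reads. In the same order, their share of the cassette exons was 45.0%, 36.3%, 45.8%, 35.9%, 34.5% and 39.9%. The median share of reads in the most common frame over pairs, 71.1% as reported, was 76.8%, 76.3%, 78.7%, 94.8%, 51.9% and 91.7%. Members with exon and skipping junction both annotated numbered 574, 161, 565, 205, 127 and 232. With any spanning junction as skipping, the share of cassette exons was 43.5% and the pair median 100%, and without ISM models the pair median was 72.1%.

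The median pooled inclusion of the 63 named exons, 41.8%, was 28.9% with any spanning junction. The other medians cover the named exons that still had a value: 84.4% over 37 with Known models only, where the same exons had 47.5% as reported, and 53.5% over 59 with models of at least 2 reads, against 42.9%. With either library left out, the number of members ranged from 223 (without replicate 1) to 349 (without replicate 2), the share from 36.5% to 40.2%, the pair median from 76.2% to 77.3%, the annotated members from 161 to 246 and the named exons' median from 38.1% to 42.5%.

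Exons called between the libraries numbered 0 with Known models only, 2 without ISM models, 2 with models of at least 2 reads and 4 by adjusted p alone, against 1 as reported. With Known models only, the Myl1 exons have no shared upstream flanking exon, since the annotated forms start at different first exons. Other causes were not tested.

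Settings chosen after seeing the data were those for reading frames, for annotated members and for low-share exons. With at least 10 reads of each form, the included form alone reached an annotated stop in 24 exons and the skipped form alone in 20, of 114, against 62 and 37 of 214. With the most read start codon only, these counts were 72 and 55 of 214, and both forms reached an annotated stop in 74, against 105. Leaving out exons with informative reads under 5% of the gene's reads left 512 members and 1 call. No direction was reversed under these settings. At the median of 41 informative reads, depth limits the inclusion of most members.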
